A study of Mus musculus with 5 samples.

Results

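The 36 genes described here cover glucose uptake, glycolysis and lactate release (21 genes) and other targets and factors of the hypoxia-inducible factors (HIFs, 15 genes), out of 22907 genes named on the arrays. They were listed by gene symbol, and their probes were found through the RefSeq accession of each probe. Where a gene had several probes, the brightest on average was used. All 36 genes had a probe, and 35 were well above background on all 5 arrays. Slc16a3, a lactate exporter, was above background only in wild-type cells with TGF-β1 alone and with vehicle.

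The arrays measured RNA of B16F1, a mouse melanoma cell line, in 4 groups. The first comprised 2 Tmsb4x knockout (KO) clones given TGF-β1 at 10 ng/ml for 2 days (1 array per clone). The other groups were wild-type cells given TGF-β1 with CCG1423 at 10 µM, wild-type cells given TGF-β1, and wild-type cells given vehicle, with 1 array each. Wild-type cells also received TGF-β1 at 10 ng/ml for 2 days, with or without CCG1423. The time with vehicle is not given in the labels. Tmsb4x encodes thymosin β4, which binds monomeric actin. The monomer keeps MRTFs, coactivators of the transcription factor SRF, from acting, and CCG1423 is a compound that inhibits MRTF signalling. TGF-β1 is a cytokine that activates SMAD transcription factors. The sample labels speak of a knockout and the design text of a knockdown. The array with both agents is so named in its title, whereas its treatment field names CCG1423 alone. All cells grew in Dulbecco's medium with 10% foetal bovine serum, and the oxygen tension is not given in the sources used here.

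Glycolysis breaks glucose down to pyruvate, which lactate dehydrogenase turns into lactate. HIFs are transcription factors made of an oxygen-regulated α subunit (Hif1a, Epas1) and a constant partner. Prolyl hydroxylases (Egln1, Egln3) mark the α subunit for destruction when oxygen is present, so mRNA levels of Hif1a do not report HIF protein. HIFs bind DNA at the core letters ACGTG or GCGTG, and genes of glucose uptake and glycolysis are among their best-known targets.

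Levels are given as log2 of the background-subtracted signal minus the 75th percentile of the array, so that 1 unit is a 2-fold difference and 0 is that percentile. That percentile was 281 and 329 signal units for the clones, 230 for TGF-β1 with CCG1423, 294 for TGF-β1 and 299 for vehicle, and 0 spots were saturated. The number of arrays limits the precision. Each wild-type condition had 1 array, so the differences among these conditions have no replicate check and no test. In such bulk RNA, fewer cells of a type and less RNA per cell cannot be told apart. All 7 melanocyte markers were above background on every array. Of the markers of other cell types, 2 of 6 immune markers (Cd68 and Cd3e) were above background on all arrays, and 0 of 5 fibroblast, 0 of 4 endothelial and 0 of 5 epithelial markers were. Tmsb4x stood at 5.44 and 4.28 in KO clones 1 and 2, against 7.12 in wild-type cells with TGF-β1 (log2 difference -2.26, SE 0.44, adjusted p = 0.0857 by limma). Clone 1 lay above the vehicle level of 5.05, and the edited region of the gene is not given in the sources used here.

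Across the 5 arrays, 1 pattern recurred among these genes: most were dimmest with CCG1423 and brightest in a KO clone. Of the 35 genes above background on all arrays, 28 had their lowest level with TGF-β1 and CCG1423. Over all 12058 genes measured on all arrays, that array was the lowest for 34.0%. In 17 of the 35 genes both clones lay above all 3 wild-type arrays, against 15.1% of all genes, and in 0 did both lie below them, against 10.9%. The 17 were Slc2a1, Pfkl, Pfkm, Aldoa, Aldoc, Tpi1, Pgam1, Pkm, Pdk1, Vegfa, Bnip3, Bnip3l, Egln1, Hif1a, P4ha1, P4ha2 and Higd1a. Clone 1 was the highest array for 21 of the 35 genes, against 25.1% of all genes, and for 14 of the 15 HIF targets and factors outside glycolysis. These ranks are a description, and the wild-type TGF-β1 array enters all 3 main comparisons.

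The first question was how these genes stood when CCG1423 was added to TGF-β1 in wild-type cells. Of the 36 genes, 30 lay below the TGF-β1 array, against 53.7% of all 14057 genes kept. The 21 genes of glucose uptake and glycolysis had a median log2 difference of -0.40 and the 15 other HIF genes a median of -0.72, beside -0.05 for all genes and -0.08 for the 3515 of them with the highest mean levels. At least 2-fold lower were 6 of the 36 genes (6.98% of all genes): Egln3, Bnip3, Egln1, Pfkl, Pdk1 and Hk2. At least 2-fold higher was Eno2 (6.01% of all genes), and 6 genes in all lay above 0 (46.3%).

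Along the pathway, the glucose transporter Slc2a1 had a log2 level of 4.36 with CCG1423 and TGF-β1, against 5.25 with TGF-β1 alone. Hk2, the inducible hexokinase that traps glucose in the cell, had a log2 level of 2.55 with CCG1423 and TGF-β1, against 3.80 with TGF-β1 alone and 4.50 with vehicle. Hk2 was thus 2.38-fold lower than with TGF-β1, and its CCG1423 array was the lowest of the 5. The other hexokinase, Hk1, stood at 5.55 with CCG1423 and TGF-β1, against 6.35 with TGF-β1 alone. Both hexokinases therefore lay lower with the inhibitor, Hk1 by less than 2-fold.

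Phosphofructokinase carries out the committed step of glycolysis and has 3 isozymes. Pfkl, the liver isozyme, stood at 1.87 with CCG1423 and TGF-β1, against 3.44 with TGF-β1 alone, and was 2.96-fold lower. Pfkp, the platelet isozyme, stood at 4.51 with CCG1423 and TGF-β1, against 4.91 with TGF-β1 alone. Pfkm, the muscle isozyme, stood at 2.78 with CCG1423 and TGF-β1, against 2.86 with TGF-β1 alone. Pfkl was thus the isozyme furthest below TGF-β1 alone, and Pfkm was at a log2 difference of -0.08. Pfkfb3 and Pfkfb4 make the sugar bisphosphate that activates phosphofructokinase. Pfkfb3 was higher with the inhibitor by 0.70 on the log2 scale and Pfkfb4 lower, at -0.36.

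By the brightest probe of each gene, the later steps of the pathway differed by less than 2-fold, except for Eno2. Dimmer probes of Ldha, Pkm and Tpi1 were more than 2-fold lower with CCG1423. Log2 differences with CCG1423 lay between -0.96 and -0.59 for Pgam1, the phosphoglycerate mutase, Pkm, the pyruvate kinase, Tpi1, the triosephosphate isomerase, Eno1, an enolase, and Ldha, the lactate dehydrogenase A chain. They were -0.77 for Aldoc, the brain aldolase, -0.36 for Pgk1, the phosphoglycerate kinase, -0.21 for Gpi1, the glucose-6-phosphate isomerase, and -0.03 for Aldoa, the main muscle aldolase. Gapdh, glyceraldehyde-3-phosphate dehydrogenase, was at 0.15. The genes of 1 pathway were therefore not spread evenly, and Aldoa and Gapdh lay near the median of all genes. The glucose transporter Slc2a3 was at -0.25, and Slc16a3 was not well above background with CCG1423, so no fold is given for it. The signs of Slc2a3, Pfkm, Pfkfb4, Aldoa, Gapdh and P4ha1 turned under at least 1 alternative setting.

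The enolases went apart. Eno2, the neuronal enolase, had a log2 level of 3.11 with CCG1423 and TGF-β1, against 0.41 with TGF-β1 alone and 1.63 with vehicle. It was 6.48-fold higher with the inhibitor than with TGF-β1 and 2.80-fold higher than with vehicle. Eno1 stood at 7.63 with CCG1423 and TGF-β1, against 8.29 with TGF-β1 alone and 8.59 with vehicle. The array that was highest for Eno2 was thus the lowest for Eno1. Eno2 has 1 probe on the array, so no other probe checks it.

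Among the HIF targets outside glycolysis, Egln3, Bnip3, Egln1 and Pdk1 were at least 2-fold lower with CCG1423. Egln3, a hypoxia-inducible prolyl hydroxylase, had a log2 level of -0.66 with CCG1423 and TGF-β1, against 1.41 with TGF-β1 alone and 0.61 with vehicle. Egln3 was 4.22-fold lower than with TGF-β1, the furthest below of the 36 genes. Egln1, the main prolyl hydroxylase of the HIF α subunits, stood at 4.41 with CCG1423 and TGF-β1, against 6.01 with TGF-β1 alone and 5.99 with vehicle, and was 3.03-fold lower than with TGF-β1. Between TGF-β1 and vehicle Egln1 differed by 0.02, so its low level was that of the CCG1423 array.

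Bnip3, which marks mitochondria for autophagy, stood at 5.48 with CCG1423 and TGF-β1, against 7.08 with TGF-β1 alone and 7.11 with vehicle, and was 3.04-fold lower than with TGF-β1. Its relative Bnip3l stood at 3.72 with CCG1423 and TGF-β1, against 4.38 with TGF-β1 alone. Pdk1, the kinase that keeps pyruvate out of the citrate cycle, stood at 2.57 with CCG1423 and TGF-β1, against 3.98 with TGF-β1 alone and 4.22 with vehicle, and was 2.66-fold lower than with TGF-β1. For Bnip3 and Pdk1, as for Egln1, the inhibitor array thus lay well below the other wild-type arrays. Log2 differences of Higd1a, a mitochondrial hypoxia protein, Vegfa, the endothelial growth factor, Kdm3a, a histone demethylase, P4ha2, a collagen prolyl hydroxylase, and Ankrd37, an ankyrin repeat protein, lay between -0.80 and -0.52. Car9, a carbonic anhydrase at the cell surface, was at -0.30. P4ha1, the sister enzyme of P4ha2, was at 0.02, and Ndrg1, a stress-responsive protein, at 0.17.

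The HIF α subunits themselves split. Hif1a stood at 4.15 with CCG1423 and TGF-β1, against 4.88 with TGF-β1 alone and 3.71 with vehicle. Hif1a was thus 1.65-fold lower with the inhibitor than with TGF-β1 and still above the vehicle array. Epas1, which encodes HIF-2α, stood at 1.23 with CCG1423 and TGF-β1, against 0.88 with TGF-β1 alone and 1.47 with vehicle. The summed level of the 6 immune markers was also highest with CCG1423, at 3.46 on the log2 scale with CCG1423 and TGF-β1, against 2.15 with TGF-β1 alone, and it came mainly from Cd68, while the leukocyte marker Ptprc was not above background on any array. All 7 melanocyte markers lay lower with CCG1423 (53.7% of all genes), with a median of -0.25. Of these 7, Mlana and Mitf were at least 2-fold lower (6.98% of all genes). The CCG1423 array also had the lowest 75th percentile of the 5. The part of these differences in the results above was not tested.

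**Figure D1:**
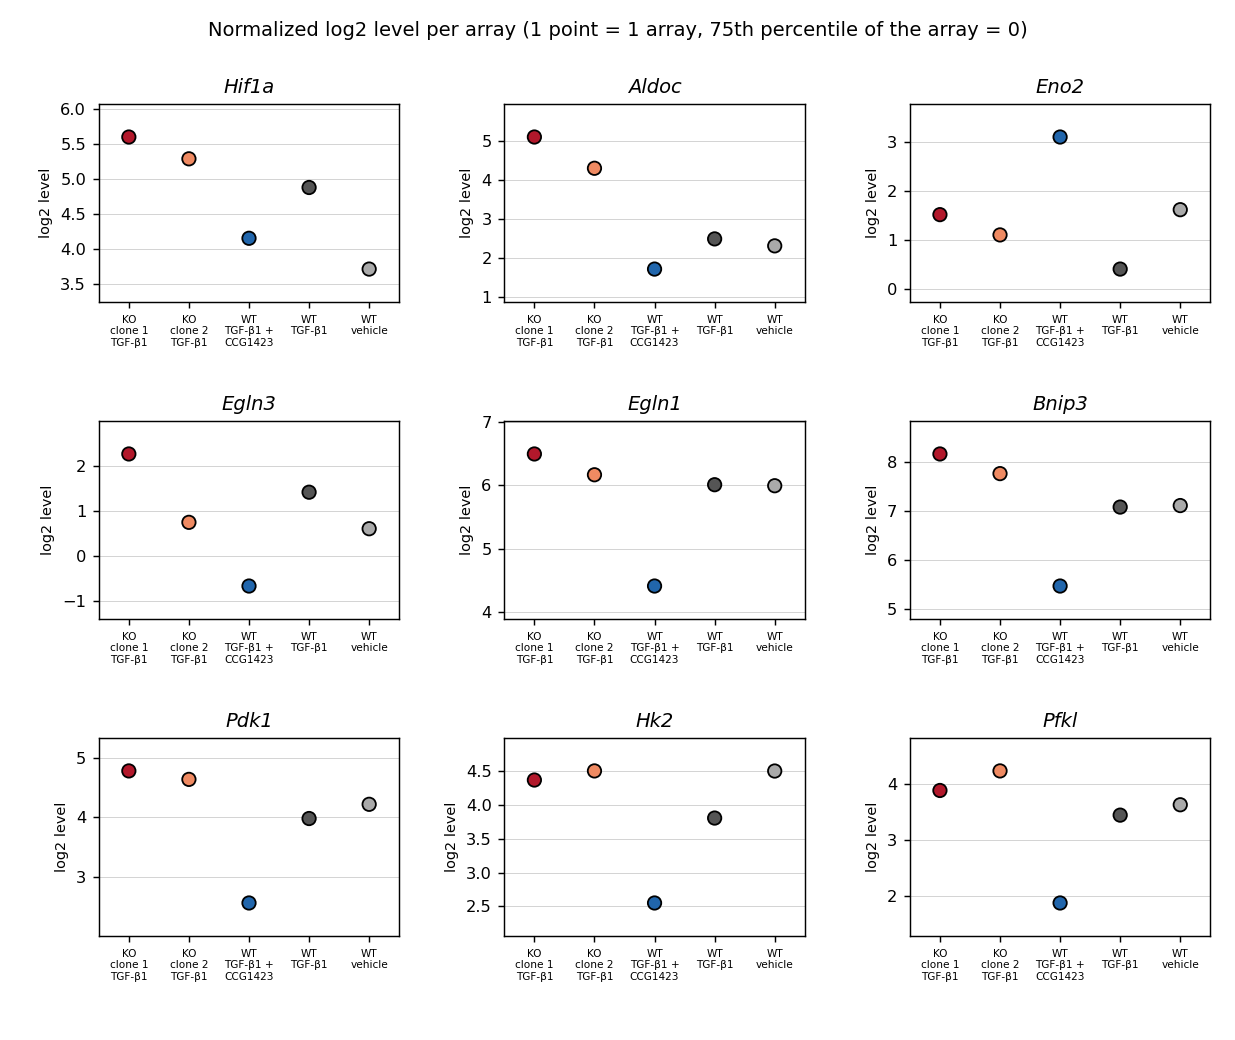
Each panel shows 1 gene, with 1 point per array (horizontal axis) and the normalized log2 level on the vertical axis, which does not start at 0 and differs between panels. Egln3, Egln1, Bnip3, Pdk1, Hk2 and Pfkl were lowest with CCG1423, Eno2 was highest there, and Aldoc was highest in both clones.

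The promoters of genes that stood apart were examined for the HIF core letters. RefSeq windows of 300 bases (GRCm38.p6, 250 before to 50 after the start, the listed window or the first of several) were at hand for 32 of the 36 genes; Slc2a3, Bnip3l, Ndrg1 and Epas1 had none. ACGTG on either strand occurred in 19 of the 32 windows (59.4%), in 10 of 20 for glucose uptake and glycolysis and in 9 of 12 for the other HIF genes. Among all 27025 genes with a window it occurred in 19.7%, and among 17492 protein-coding genes in 20.7%. GCGTG occurred in 53.1% of the member windows, in 32.5% of all windows and in 38.4% of the protein-coding ones. The member windows also held more G and C, with a median of 64.8% against 56.3% in protein-coding genes, and the part of that difference in these shares was not tested. The genes were listed beforehand as genes of glycolysis or as HIF targets and factors, so their higher share is no finding of these arrays. A match describes the letters and is not a measured binding site, and ACGTG overlaps itself across strands where the letters read CACGTG.

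Windows are printed for 4 genes that were lower with CCG1423 and hold the letters, for Eno2, which was higher with CCG1423 and has none, and for Aldoc, which was higher in the clones. They are written 5′ to 3′ on the strand of the gene, and capitals mark ACGTG, its reverse complement CACGT, or both overlapping as CACGTG. Egln3 lies at chr12:54203825-54204124 (minus strand), Bnip3 at chr7:138909457-138909756 (minus), Egln1 at chr8:124949205-124949504 (minus), Hk2 at chr6:82774405-82774704 (minus), Eno2 at chr6:124769624-124769923 (minus) and Aldoc at chr11:78322823-78323122 (plus).
Egln3: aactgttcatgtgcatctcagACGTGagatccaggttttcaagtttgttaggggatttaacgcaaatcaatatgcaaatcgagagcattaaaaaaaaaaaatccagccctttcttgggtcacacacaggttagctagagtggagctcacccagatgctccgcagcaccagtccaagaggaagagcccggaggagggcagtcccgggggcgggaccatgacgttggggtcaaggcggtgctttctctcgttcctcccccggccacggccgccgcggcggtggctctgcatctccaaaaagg
Bnip3: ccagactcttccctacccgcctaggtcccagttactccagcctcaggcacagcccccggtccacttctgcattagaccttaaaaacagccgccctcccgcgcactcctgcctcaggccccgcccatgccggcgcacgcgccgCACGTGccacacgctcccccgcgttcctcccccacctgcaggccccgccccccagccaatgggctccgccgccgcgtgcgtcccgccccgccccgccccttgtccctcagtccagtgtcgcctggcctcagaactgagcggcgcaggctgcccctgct
Egln1: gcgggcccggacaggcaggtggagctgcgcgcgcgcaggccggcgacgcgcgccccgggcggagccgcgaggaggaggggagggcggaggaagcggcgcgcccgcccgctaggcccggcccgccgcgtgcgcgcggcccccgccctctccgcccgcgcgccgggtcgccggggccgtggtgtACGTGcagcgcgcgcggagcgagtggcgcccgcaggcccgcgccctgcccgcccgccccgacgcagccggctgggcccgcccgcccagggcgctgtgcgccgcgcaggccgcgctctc
Hk2: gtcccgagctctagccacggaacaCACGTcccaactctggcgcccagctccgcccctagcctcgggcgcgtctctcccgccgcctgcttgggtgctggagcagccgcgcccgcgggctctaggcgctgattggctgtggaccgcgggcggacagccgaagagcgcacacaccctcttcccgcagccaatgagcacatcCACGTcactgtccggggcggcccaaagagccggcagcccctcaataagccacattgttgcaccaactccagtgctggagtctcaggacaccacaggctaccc
Eno2: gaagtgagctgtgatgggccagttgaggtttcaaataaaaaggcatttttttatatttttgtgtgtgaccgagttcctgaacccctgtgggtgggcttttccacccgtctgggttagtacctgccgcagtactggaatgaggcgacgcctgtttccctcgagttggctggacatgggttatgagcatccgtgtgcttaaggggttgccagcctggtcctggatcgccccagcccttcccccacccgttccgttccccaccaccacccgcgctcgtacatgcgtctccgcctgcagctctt
Aldoc: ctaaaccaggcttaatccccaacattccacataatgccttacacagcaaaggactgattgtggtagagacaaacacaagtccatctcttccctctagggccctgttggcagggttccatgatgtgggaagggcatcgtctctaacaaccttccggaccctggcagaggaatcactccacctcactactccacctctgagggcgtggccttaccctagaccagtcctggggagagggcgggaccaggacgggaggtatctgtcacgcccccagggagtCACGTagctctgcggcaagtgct
The letters occur once in the windows of Egln3, Egln1 and Aldoc, in 2 places in that of Hk2, and as the palindrome CACGTG in that of Bnip3. Of the other genes at least 2-fold lower with CCG1423, Pfkl and Pdk1 hold no ACGTG in this window but do hold GCGTG. With either form counted, all 6 genes at least 2-fold lower with CCG1423 hold a core. Of the other 26 member windows 19 hold one (73.1%), as do 43.8% of all windows and 49.2% of the protein-coding ones. Eno2 holds 0 of either form. So do Hk1, Gpi1, Aldoa, Tpi1, Pkm and Vegfa, whose log2 differences with CCG1423 lay between -0.93 and -0.03 by their brightest probes. Dimmer probes of Tpi1 (-1.08 and -1.04) and Pkm (-1.13) were more than 2-fold lower with CCG1423. That all 6 hold a core thus depends on the probe used. Pfkfb3, Gapdh and P4ha1, which lay above 0 with CCG1423, hold a core.

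The next question was how the genes stood in the Tmsb4x KO clones when both genotypes received TGF-β1. In 26 of the 36 genes both clones lay above the wild-type array, against 32.5% of all 13729 genes kept, and in 2 both lay below it, against 32.4%. The genes of glucose uptake and glycolysis had a median log2 difference of 0.36 in clone 1 and 0.25 in clone 2, and the other HIF genes 0.80 in clone 1 and 0.23 in clone 2. The median over all genes, on the mean of the clones, was -0.01, and over the 3433 genes with the highest mean levels 0.05. At least 2-fold higher in both clones was Aldoc (0.699% of all genes), and 0 genes were 2-fold lower in both (1.58%). By limma's moderated test with Benjamini-Hochberg adjustment over 13729 genes, 0 of the 36 genes passed the threshold of 0.05, while of all genes 0.00728% passed as higher and 0.226% as lower. At an unadjusted p under 0.05, 4 of the 36 were higher (2.26% of all genes) and 0 lower (3.52%).

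Aldoc stood furthest from wild type. Its log2 level was 5.10 and 4.30 in clones 1 and 2, against 2.49 in wild-type cells with TGF-β1. The clones lay 6.10-fold and 3.50-fold above wild type (log2 difference 2.21, SE 0.36, adjusted p = 0.0509 by limma), which missed the threshold. Both clones were also above the levels of 1.72 with CCG1423 and TGF-β1 and of 2.31 with vehicle. The second Aldoc probe gave a log2 difference of 2.27. Aldoa, which catalyses the same step, stood at 9.63 and 9.68 in the clones, against 9.25 in wild-type cells with TGF-β1, so that the isozymes differed in size by more than 1 log2 unit.

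The other 3 genes at an unadjusted p under 0.05 were Eno2, Bnip3 and Pdk1. Eno2 stood at 1.52 and 1.11 in clones 1 and 2, against 0.41 in wild-type cells with TGF-β1 (log2 difference 0.90, SE 0.31, adjusted p = 0.563 by limma). Both clones lay below the vehicle level of 1.63, so Eno2 was above 1 of the wild-type arrays used here and not above the others. Bnip3 stood at 8.16 and 7.76 in the clones, against 7.08 in wild-type cells with TGF-β1 (log2 difference 0.88, SE 0.34, adjusted p = 0.707 by limma). Pdk1 stood at 4.78 and 4.64 in the clones, against 3.98 in wild-type cells with TGF-β1 (log2 difference 0.72, SE 0.28, adjusted p = 0.716 by limma). For Bnip3 and Pdk1 both clones lay above all 3 wild-type arrays, and 0 of these 3 genes passed after adjustment.

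Other steps of the pathway lay above wild type by smaller amounts. Hk2 stood at 4.36 and 4.50 in clones 1 and 2, against 3.80 in wild-type cells with TGF-β1 and 4.50 with vehicle. Clone 2 and vehicle were thus level for Hk2. Hk1 stood at 6.22 and 6.60 in the clones, against 6.35 in wild-type cells with TGF-β1, with the clones on either side. Pfkl stood at 3.88 and 4.23 in the clones, against 3.44 in wild-type cells with TGF-β1, and Pfkm and Pfkp differed by 0.39 and 0.41 on the mean of the clones. All 3 phosphofructokinase isozymes lay above wild type in both clones, and 0 of the 3 passed the test.

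Slc2a1 differed by 0.70 in clone 1 and 0.45 in clone 2, and Tpi1 by 0.88 in clone 1 and 0.56 in clone 2. Pkm differed by 0.61 in clone 1 and 0.21 in clone 2. Log2 differences on the mean of the clones lay between 0.12 and 0.35 for Ldha, Pgam1, Eno1, Pgk1, Gpi1 and Slc2a3, and Pfkfb3 was at 0.17. The second, dimmer probe of Ldha, also above background on all arrays, gave 0.61, with 0.84 in clone 1 and 0.38 in clone 2. Gapdh at -0.02 and Pfkfb4 at -0.14 were the 2 genes with both clones below wild type. For Gapdh this held for the brightest probe alone. Its other probes lay above wild type in both clones, at 0.09 to 0.30 on the mean of the clones. Except for Aldoc and Eno2, every gene of glucose uptake and glycolysis thus differed by less than 1 log2 unit in each clone. On the mean of the clones, the signs of Hk1, Pfkfb3, Pfkfb4, Gapdh, Pgam1, Ldha, Slc16a3, Car9, Ndrg1, Egln3, Ankrd37 and Epas1 turned under at least 1 alternative setting or without 1 clone.

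Hif1a stood at 5.60 and 5.28 in clones 1 and 2, against 4.88 in wild-type cells with TGF-β1 (log2 difference 0.56, SE 0.30, adjusted p = 0.983 by limma). Epas1 stood at 0.68 and 1.08 in the clones, against 0.88 in wild-type cells with TGF-β1. Both clones were thus above wild type for Hif1a and on either side of it for Epas1. Egln1 stood at 6.49 and 6.16 in the clones, against 6.01 in wild-type cells with TGF-β1. Adm, which encodes the HIF target adrenomedullin and is not among the 36 genes, was the gene that passed on the higher side (log2 difference 2.71, SE 0.35, adjusted p = 0.0307 by limma).

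The clones stood further apart in the HIF targets outside glycolysis than in the glycolysis genes. Of those 15 genes, 14 were higher in clone 1 than in clone 2 (54.2% of all genes) and 1 was lower (45.8%), with a median log2 difference of 0.40, against 0.10 for the 20 genes of glucose uptake and glycolysis measured in either clone. At least 2-fold higher in clone 1 than in clone 2 were Egln3 and Ankrd37 (3.34% of all genes), and 0 of the 35 genes kept were 2-fold lower (4.24%). Egln3 stood at 2.26 and 0.75 in clones 1 and 2, against 1.41 in wild-type cells with TGF-β1. Ankrd37 stood at 3.19 and 1.79 in clones 1 and 2, against 1.80 in wild-type cells with TGF-β1. Clone 1 thus lay above wild type for both genes, whereas clone 2 lay below it for Egln3 and level with it for Ankrd37.

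Bnip3l, at 5.54 and 4.68 in clones 1 and 2, against 4.38 in wild-type cells with TGF-β1, was 2.24-fold and 1.23-fold above wild type. Higd1a differed by 0.94 in clone 1 and 0.23 in clone 2, and Vegfa by 0.91 in clone 1 and 0.31 in clone 2. Car9 differed by 0.91 in clone 1 and -0.08 in clone 2, and Ndrg1 by 0.40 in clone 1 and -0.46 in clone 2. P4ha1, P4ha2 and Kdm3a had a smaller gap between the clones, with differences of 0.38, 0.53 and 0.23 in clone 1 and 0.30, 0.31 and 0.18 in clone 2. Clone 1 alone had 5 of the 36 genes at least 2-fold above wild type (Aldoc, Ankrd37, Bnip3l, Eno2 and Bnip3), against 2.77% of all genes. Clone 2 alone had 1 of the 36 (Aldoc), a share near the 2.77% of all genes. Without clone 1 the median of the 15 genes was 0.23, and without clone 2 it was 0.80. The spread behind limma came from the 2 clones alone, with 1 residual degree of freedom, and the fit takes the single wild-type array to have the same spread.

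**Figure D2:**
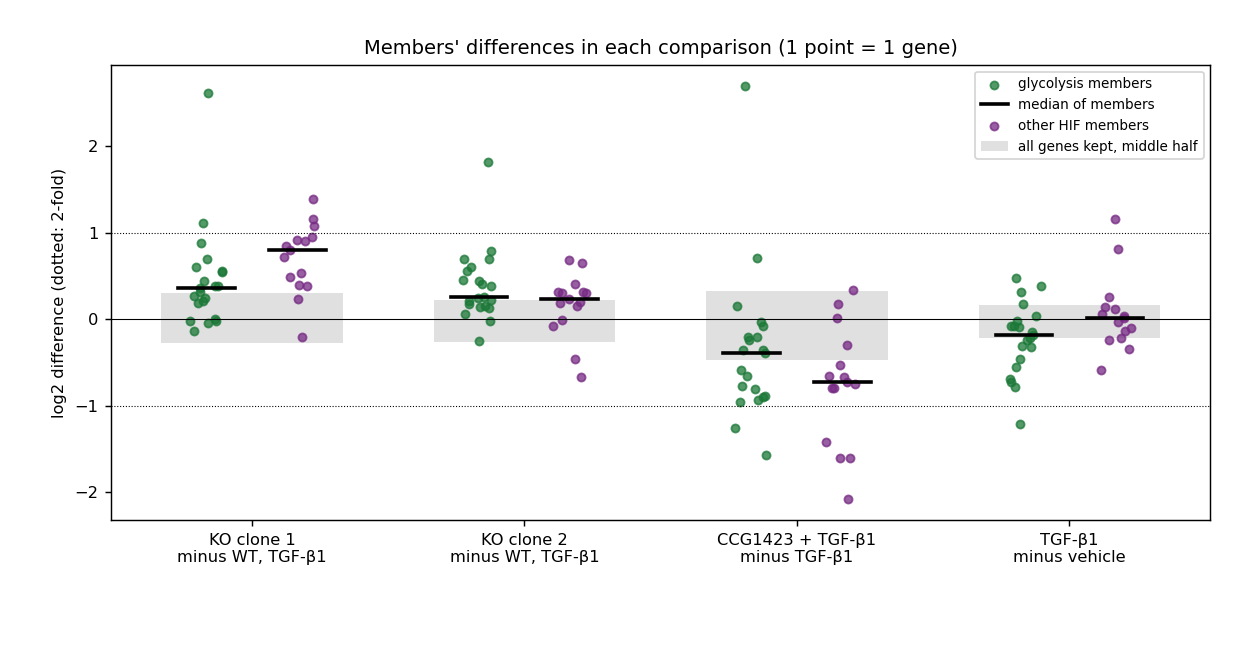
Points are genes, with the log2 difference on the vertical axis for each comparison on the horizontal axis, green for glucose uptake and glycolysis and purple for the other HIF genes. Black bars are medians, grey bands run from the lower to the upper quartile of all genes kept, and dotted lines mark 2-fold. The purple medians are 0.80 in clone 1, 0.23 in clone 2, -0.72 with CCG1423 and 0.02 with TGF-β1.

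TGF-β1 alone, set against vehicle in wild-type cells, gave list medians nearer 0. The genes of glucose uptake and glycolysis had a median of -0.18, with 16 of 21 below 0 (57.2% of all genes), and the other HIF genes a median of 0.02, with 8 of 15 above 0 (42.8%). The median over all genes was -0.05. At least 2-fold higher was Hif1a (4.95% of all genes), and at least 2-fold lower was Eno2 (3.27%). These shares, 1 of 36 on each side, are near those of all genes.

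Hif1a stood at 4.88 with TGF-β1, against 3.71 with vehicle, and was 2.24-fold higher. Its level with vehicle was the lowest of the 5 arrays. Epas1 stood at 0.88 with TGF-β1, against 1.47 with vehicle. The α subunits thus differed in direction. Eno2 stood at 0.41 with TGF-β1, against 1.63 with vehicle, and was 2.32-fold lower, the lowest of its 5 arrays. Egln3 was 1.75-fold higher with TGF-β1. Log2 differences of Slc2a3, Pfkp, Hk2, Gpi1 and Pfkfb3 lay between -0.78 and -0.46, whereas Slc2a1 and Hk1 were higher, by 0.39 and 0.47. The transporters and the hexokinases therefore differed in direction within each pair. The signs of Gapdh, Pgam1, Pkm, Ldha, Slc16a3, Bnip3, Bnip3l, Car9 and Egln1 turned under at least 1 alternative setting.

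Set against vehicle, wild-type cells with both agents showed 30 of the 36 genes below 0 (53.6% of all genes) and 6 above (46.4%), with 11 at least 2-fold lower (8.06%) and 1 at least 2-fold higher (7.56%). The 11 were Hk2, Pfkl, Pdk1, Bnip3, Egln1, Egln3, Tpi1, Pfkp, Pgam1, Slc2a3 and Pkm, and the 1 was Eno2. Hk2 was 3.85-fold lower, Pfkl 3.37-fold, Pdk1 3.14-fold and Bnip3 3.11-fold. This comparison uses the same CCG1423 array as the one against TGF-β1, so the low values are not a second measurement.

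Of the 36 genes, 18 had several probes, and 14 had several above background on all arrays. All probes of a gene shared the sign in 11 of the 14 genes with CCG1423, in 13 for clone 1, in 10 for clone 2 and in 13 for TGF-β1 against vehicle. Pdk1 had the widest spread with CCG1423, since its 4 probes gave -1.43, -1.41, -0.62 and -0.04, and the last also gave 0.01 in the clones. The 2-fold call for Pdk1 thus held for 2 of its 4 probes. The dimmer probes of Ldha, Eno1, Pkm and Tpi1 gave -1.18, -0.99, -1.13, and -1.08 and -1.04 with CCG1423, each further below 0 than the brightest probe. The 6 probes of Gapdh lay between -0.07 and 0.15 with CCG1423 and between -0.02 and 0.30 in the clones. For Vegfa, 3 of 4 probes were below 0 with CCG1423 and 1 was at 0.09. That last probe gave 1.01 in clone 1 and -0.39 in clone 2, whereas the other 3 lay above wild type in both clones.

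**Figure D3:**
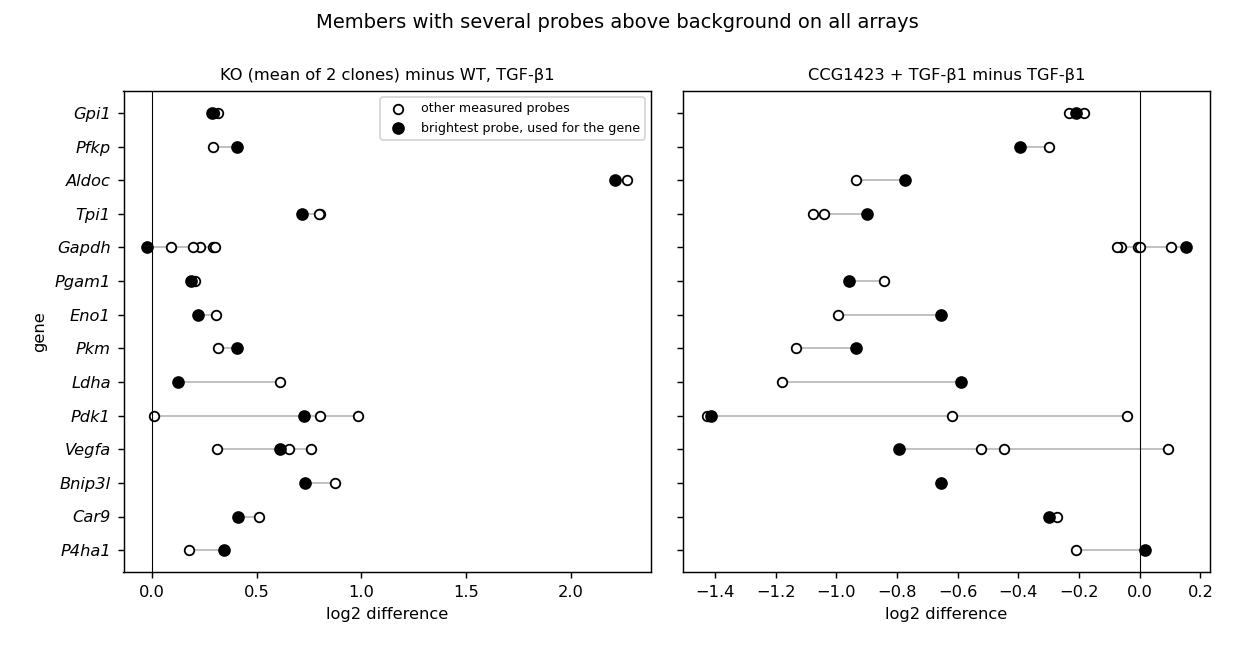
For the 14 genes with several probes above background on all arrays (vertical axis), each point is the log2 difference of 1 probe (horizontal axis), for the KO clones on the left and for CCG1423 on the right. Filled points are the brightest probes, which stand for the gene. The 2 Aldoc probes lie together in the clones at 2.21 and 2.27, and the 4 Pdk1 probes with CCG1423 range from -1.43 to -0.04.

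Genes around these pathways gave a point of comparison. Of 29 further HIF targets, 21 were kept in the comparison with CCG1423, and 19 of them lay below 0 (53.7% of all genes), with a median of -0.37. Ak4, an adenylate kinase, was 3.62-fold lower with CCG1423 and Selenbp1, a selenium-binding protein, 2.67-fold lower. In the clones 12 of 21 lay above wild type in both (32.5% of all genes), and Ddit4, an inhibitor of mTOR signalling, stood 2.99-fold and 1.68-fold above (adjusted p = 0.518 by limma). With TGF-β1 against vehicle, Tfrc, the transferrin receptor, was 2.81-fold lower.

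Of the 15 genes of HIF control, such as partners and ubiquitin ligase subunits, 13 were kept, with a median of -0.05 with CCG1423 and 0.13 in the clones. Vhl, the receptor that binds hydroxylated HIF α, was 2.07-fold lower with CCG1423 and 1.80-fold and 1.47-fold above wild type in the clones. The 7 genes of the pentose phosphate pathway had a median of -0.70 with CCG1423, but 4 lay below 0 and 3 above (53.7% and 46.3% of all genes). Among them Pgd, phosphogluconate dehydrogenase, was 2.30-fold lower. The 20 genes of the citrate cycle and pyruvate dehydrogenase had medians of -0.15 with CCG1423, 0.07 in the clones and -0.19 with TGF-β1, where all 20 lay below vehicle (57.2% of all genes). Further genes of glucose metabolism had a median of -0.18 with CCG1423 (17 kept) and of 0.33 in the clones (18 kept). In that list Pdk2, a relative of Pdk1, was 2.22-fold higher with CCG1423, and Bpgm, which makes bisphosphoglycerate, had 3.03-fold more signal with TGF-β1 than with vehicle. The sister kinases Pdk1 and Pdk2 thus lay on opposite sides with the inhibitor. Of all the genes on these 5 lists, 0 passed limma's adjusted p of 0.05 in the clones. At an unadjusted p under 0.05, limma gave 3 of 21 higher among the further HIF targets, 1 of 13 higher among the genes of HIF control and 0 on the other lists, against 2.26% of all genes on the higher side.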

How the data were processed

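RNA of 5 cultures was measured on 5 Agilent 1-colour arrays, which share 1 slide and 1 scan per the file headers, so no batch could be tested. Agilent Feature Extraction 12.0.3.1 gave the intensity (the processed signal) and its flags, per the submitters' processing notes, after subtracting background within each array, per the file headers. A table deposited by the authors holds the same intensity times a constant per array and served as an alternative. Control spots and outlier spots were left out, the remaining spots of each probe were averaged as log2 signal, and each array was set to its 75th percentile.

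Of 56595 probes, 32988 matched 22907 RefSeq genes (GRCm38.p6), and the brightest probe stood for each of 7897 genes with several. A gene was kept if, for at least 1 side of a comparison, all arrays showed it well above background. The clones were tested with limma 3.58.1 in R 4.3.3 (eBayes with trend, all 5 arrays in 4 groups), checked on simulated data. Python 3.11.15 served for the rest, with matplotlib 3.10.9, numpy 2.4.6 and pandas 2.3.3. Nothing says that the wild-type cultures were separate. A p-value reflects the spread between the 2 clones alone, with 1 array each, in which clone differences and technical differences cannot be told apart.

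The members and lists were chosen with earlier results of these data known. Named with all levels are genes at 2-fold or more in a comparison (for the clones, in both), the HIF α subunits, and isozymes of such genes. Adm and the levels of Bnip3l, Slc2a1 and Ankrd37 were added after their values were seen. Of each further list, up to 2 genes at 2-fold or more on either side are named; Vhl, Ddit4, Pgd, Pdk2 and Bpgm are among these. Alternatives changed the scaling, normalization, background correction, probe rule, filter, fold, trend and arrays used. Because the scanner files used here hold no mean signal, normexp took the median signal.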

Additional observations from a re-analysis of the deposited data

How the results depend on the processing

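Of the 7, 2 and 1 genes at 2-fold or more with CCG1423, with TGF-β1 and in both clones, 0 turned sign under any setting run. No paired analysis was possible because the groups compared share fewer than 2 replicate numbers.

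With the deposited value table the median over all genes shifted to -0.18 with CCG1423, -0.20 in the clones (-0.35 in clone 1) and 0.06 with TGF-β1. Medians of glucose uptake and glycolysis were then -0.53 with CCG1423, 0.15 in the clones and -0.084 with TGF-β1. In that setting 10 member genes were 2-fold lower with CCG1423, and the share of all genes is not given. With quantile normalization these medians were -0.51 with CCG1423 and 0.20 in the clones, and with normexp 0.19 in the clones. With only genes above background on every array compared, the median with CCG1423 was -0.49. Averaging probes gave 2 genes 2-fold lower with TGF-β1, where the share of all genes is likewise not given. At 1.5-fold, 2 genes were higher and 20 lower with CCG1423 (13.8% and 17.2% of all genes), 2 higher and 5 lower with TGF-β1 (9.08% and 6.91%), and 4 higher in both clones (2.84%). Leaving out a clone gave 1 to 5 genes at 2-fold higher (2.77% of all genes for each clone) and glycolysis medians of 0.25 to 0.36.

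Aldoc (adjusted p = 0.0509) was the 1 member gene called by limma with median scaling (0.0442), the percentile over measured probes (0.0391) and the deposited table (7.56e-04). It was also the 1 member gene called by limma with no filter (1.04e-10) and with only the 3 arrays compared (0.0374). Its adjusted p by limma reached 0.224 elsewhere. Over all genes, against 1 higher and 31 lower, limma called 5 and 48 with median scaling, 10 and 64 with the percentile over measured probes, 0 and 0 with quantile normalization or averaged probes, 3 and 77 with normexp, 20 and 200 with the deposited table, 100 and 179 without a filter, 10 and 174 without a trend, and 11 and 64 with only the 3 arrays; the stricter filter gave 2 lower. The cause of these moves was not tested. Signal near background limits Slc16a3, and clone 2, whose lowest signal above background was 26.0 (13.3 to 15.5 elsewhere), gives weaker limits for dim genes.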
